A study of Mus musculus with 12 samples.

Results

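The genes described here encode the nuclear subunits of the mitochondrial respiratory chain and of ATP synthase, measured in 2-cell mouse embryos. They were taken by name: each probe set whose single platform gene symbol began with Nduf followed by a, b, c, s or v and a number, with Uqcr, with Cox and a number between 4 and 8, or with Atp5 and a letter between a and l, leaving out the Ndufaf assembly factors. This gave 149 probe sets for 73 of the 18163 genes on the array: 33 of complex I, 8 of complex III, 18 of complex IV, 13 of complex V and the supercomplex factor Cox7a2l. Ndufa4 and Ndufa4l2 were placed with complex IV, where the Ndufa4 protein is now known to reside. The 43 genes with several probe sets are each given by the set with the highest mean log2 level over the 12 arrays, a choice that uses no difference between groups. Another 9 probe sets that name more than 1 gene, most of them a subunit and a near-identical copy, were left out.

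All embryos came from wild-type F1 C57BL6xDBA/2 females of 3 to 5 weeks, superovulated, mated with wild-type males and collected at the 1-cell stage 17 hours after human chorionic gonadotropin, with the cumulus cells stripped off by hyaluronidase. Oct4-MO embryos received in the cytoplasm a morpholino (MO), an antisense oligonucleotide that blocks translation, against the mRNA of Oct4 (Pou5f1), a transcription factor of pluripotent cells. Ccna2-MO embryos received a morpholino against the mRNA of cyclin A2, a cell cycle regulator. The labels give 0.6 mM for both. The study's methods name a higher concentration as usual for Ccna2-MO, and its summary of experiments gives that higher concentration for the Ccna2-MO array embryos. Which of them was used is not settled, so the 2 injected groups may differ in dose. Each knockdown had uninjected embryos from its own pool of 3 to 6 females, cultured in parallel. These were not injected, so within either comparison with uninjected embryos the effect of a knockdown and that of an injection cannot be told apart. The study took the Ccna2-MO embryos as its control for injection on the arrays, and the difference between the knockdowns sets 2 injected groups against each other. Each of the 4 groups had 3 arrays, each array represents a pool of 20 mid-2-cell embryos (RNA worth 10 embryos went through 2 amplification rounds), and the p-values measure the spread between such pools. Fewer cells and less RNA per cell cannot be told apart in pooled embryos.

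The respiratory chain passes electrons from NADH (complex I) and succinate (complex II) through coenzyme Q, complex III and cytochrome c to oxygen at complex IV, pumping protons that drive ATP synthase, or complex V. Most of its subunits are encoded in the nucleus and imported into mitochondria, while a small core is encoded by mitochondrial DNA. The mouse egg carries a large store of mitochondria and the early embryo oxidises pyruvate as its main fuel. At the mid-2-cell stage transcripts stored by the egg are known to stand beside the first ones of the embryo; the arrays do not separate them.

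The arrays were alike in scale: the median intensity of all probe sets lay between 22.7 and 25.47 on every array, and 39.3 to 42.7% of probe sets stood below an intensity of 16, the value added before taking logarithms. A morpholino need not lower the mRNA it binds, and neither target was lower by test. Pou5f1 stood at 2289, 1825 and 2466 in Oct4-MO embryos, against 1798, 1859 and 2112 in their uninjected embryos (log2 fold change 0.18, SE 0.13, limma adjusted p = 0.77). Ccna2 stood at 3183, 3205 and 4398 in Ccna2-MO embryos, against 3949, 3444 and 4222 in theirs (-0.12, SE 0.14, adjusted p = 0.76). The targets' mRNA therefore does not check the labels. Of the oocyte and early embryo markers, 9 of 10 had a probe set and all of these were above 16 on every array.

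The subunit mRNAs were well represented. Of the 73 genes, 43 had an intensity of at least 100 on all 12 arrays and 64 of at least 16 on all 12, while the other 9 reached 16 on some arrays. Of the genes at 100 or more throughout, 18 of 33 were in complex I, 5 of 8 in complex III, 10 of 18 in complex IV and 9 of 13 in complex V. Replicate pools varied: the median SD of the 73 genes on the log2 scale came to 0.32 for Oct4-MO and 0.27 for their uninjected embryos, and to 0.40 for Ccna2-MO and 0.37 for theirs. Over the 43 brighter subunit genes it was 0.28 for Oct4-MO and 0.23 for their uninjected embryos, and 0.37 for Ccna2-MO and 0.38 for theirs. All 4562 genes of that brightness had 0.24 for Oct4-MO and 0.19 for uninjected embryos of that experiment, and 0.32 for Ccna2-MO and 0.24 for uninjected embryos of theirs.

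Promoters of these genes are known for binding sites of NRF1, GABPA and YY1, transcription factors of the nuclear genes for mitochondria. Windows running from 250 bases before to 50 after the start of a gene (RefSeq, build GRCm38.p6) were searched on both strands for 3 motifs, and 65 windows matched 60 of the 73 genes. The NRF1 motif, GCGCA and GCGC with any 1 base between them, lay in 13 of the 65 windows (20%), against 4.6% of all 32851 windows. CCGGAAG, for GABPA, lay in 14 (21.5%), against 8.86% of all. AAGATGGC, for YY1, lay in 8 (12.3%), against 2.75% of all. The last letters of the GABPA motif are the first of the YY1 motif, but no subunit window, and 1 of all windows, held a pair that overlapped. The 6 stretches of 30 bases here belong to genes whose levels are described further on and are shown with the motif, or its reverse complement, in capitals; they were read 5′ to 3′ on the strand of the gene, which is the minus strand for all 6. A match describes letters in a window, not a bound site.
Ndufc1, YY1 motif, chr3:51408915-51408944: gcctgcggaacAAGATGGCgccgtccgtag
Ndufa9, YY1 motif, chr6:126849097-126849126: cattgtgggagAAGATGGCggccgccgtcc
Atp5g2, NRF1 motif, chr15:102671070-102671099: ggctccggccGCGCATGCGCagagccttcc
Atp5g3, NRF1 motif reversed, chr2:73911295-73911324: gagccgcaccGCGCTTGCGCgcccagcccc
Uqcrh, GABPA motif reversed, chr4:116075062-116075091: agtatgccgcaCTTCCGGccaggtcgccgg
Cox6a1, GABPA motif reversed, chr5:115348956-115348985: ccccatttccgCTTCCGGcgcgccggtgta
Counting the first transcribed base as 1, the capitals began at position 23 in Ndufc1, 30 in Ndufa9 and 13 in Atp5g3, within the transcribed part, and at -42 in Atp5g2, -10 in Uqcrh and -16 in Cox6a1, upstream of it. Of the 8 genes with the YY1 motif 6 belonged to complex I, where it lay in 18.8% of windows, while the NRF1 and GABPA motifs were each in 33.3% of the complex V windows.

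The first question was whether the subunit genes responded to the knockdown of Oct4. None of the 73 passed the test (limma, adjusted p under 0.05 over all 44937 probe sets), against a background of 0.0275% of all genes called higher and 0.0661% called lower, and the lowest adjusted p of a subunit gene was 0.29. At an unadjusted p under 0.05, 3 were higher (4.66% of all genes) and 2 were lower (5.96% of all genes), in sum 6.85% of the 73 against 10.6% of all genes. The 3 Oct4-MO arrays lay wholly above their uninjected arrays for 6 subunit genes (8.22%; 9.21% of all genes) and wholly below for 6 (8.22%; 9.57% of all genes). The median log2 fold change of the 73 was -0.12, with a range of -1.11 to 1.01 and 51 genes below 0, while the median of all genes was 0.01. Over the 43 brighter subunit genes the median was -0.08, beside -0.06 for the 4562 genes of that brightness. An unadjusted p under 0.05 was reached by 2.33% of those 43, against 18.5% of the 4562.

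After knockdown of cyclin A2, 1 of the 73 genes passed the test: Ndufc1, a small accessory subunit of complex I, was lower. Over all genes 0.462% were called higher and 0.468% lower. At an unadjusted p under 0.05, 6 subunit genes were higher (8.22% of all genes) and 9 lower (8.5% of all genes), in sum 20.5% of the 73 against 16.7% of all genes. Bright genes reached that p more often: it was 20.9% of the 43 brighter subunit genes, against 31.1% of the 4562 genes of that brightness. Ccna2-MO arrays lay wholly above their uninjected arrays for 4 subunit genes (5.48%; 9.89% of all genes) and wholly below for 7 (9.59%; 9.29% of all genes). The median log2 fold change was -0.11, from -1.63 to 1.25 with 40 genes below 0, beside 0.03 for all genes, and over the 43 brighter genes it was -0.15, beside 0.01. The difference between the 2 knockdowns passed the test for no subunit gene and for 0% of all genes on their brightest probe set. At an unadjusted p under 0.05 the log2 fold change was larger after Oct4 knockdown for 4 subunit genes (3.19% of all genes) and smaller for 1 (3.93% of all genes), and the lowest adjusted p was 0.54.

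**Figure D1:**
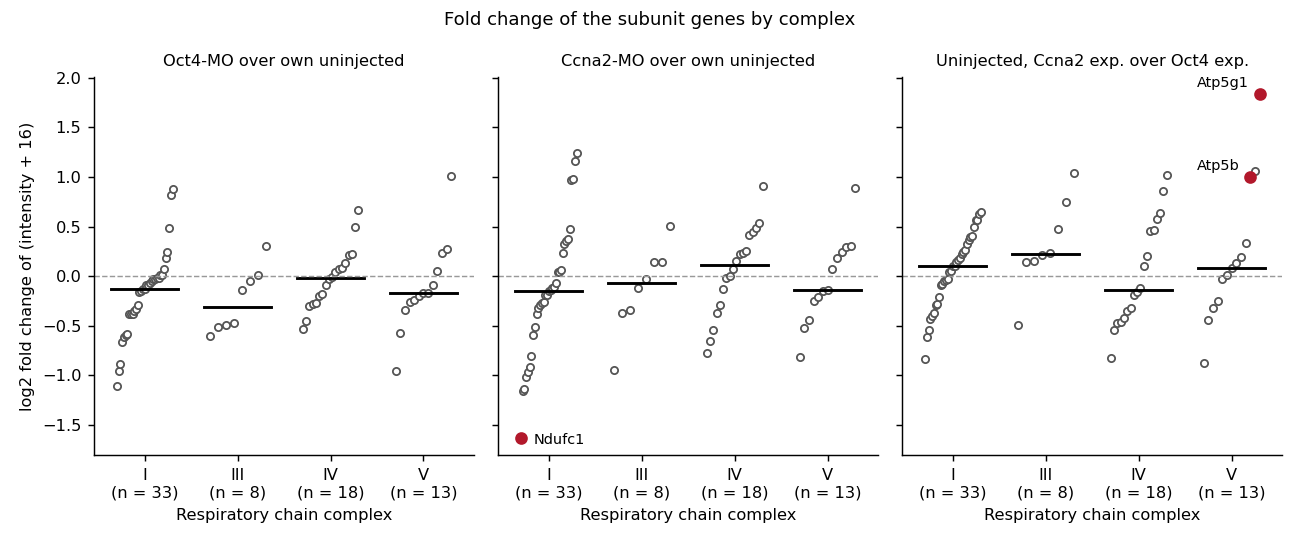
Log2 fold change of (intensity + 16) for each subunit gene, by complex, in each knockdown over its own uninjected embryos, and in uninjected embryos of the Ccna2 experiment over those of the Oct4 experiment. Each circle is a gene, in order of its fold change, filled and named where the limma adjusted p was under 0.05, and the black bar is the median; Cox7a2l is not drawn. The genes spread to both sides of 0 in every complex, and 3 circles are filled, Ndufc1 below 0 and Atp5b and Atp5g1 above it.

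By complex, the array medians of the knockdown and the uninjected embryos overlapped in all 4 complexes. Over all 73 genes the median intensity was 306, 238 and 274 in Oct4-MO embryos, against 279, 299 and 268 in their uninjected embryos. In Ccna2-MO embryos it was 269.5, 243 and 392, against 267, 292 and 396 in theirs. Replicate 3 was the highest in both groups of the Ccna2 experiment. In complex I the median gene had a log2 fold change of -0.12 in Oct4-MO embryos, with 25 of 33 genes below 0, and of -0.15 in Ccna2-MO embryos, with 21 below 0. Complex III had medians of -0.31 (6 of 8 below 0) and -0.07 (5 of 8). Complex IV had -0.02 (10 of 18) and 0.12 (7 of 18). Complex V had -0.17 (9 of 13) and -0.14 (7 of 13). The SD of the array medians within groups was 0.22 to 0.42 on the log2 scale, and of the 8 medians only that of complex III in Oct4-MO embryos exceeded its own (SD 0.29), and without Oct4-MO replicate 3 it was -0.03. A summary by array could differ in sign: the array medians of complex I averaged 251 in Oct4-MO embryos, against 240.1 in their uninjected embryos, and those of complex IV averaged 499.8 in Ccna2-MO embryos, against 581.9 in theirs.

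**Figure D2:**
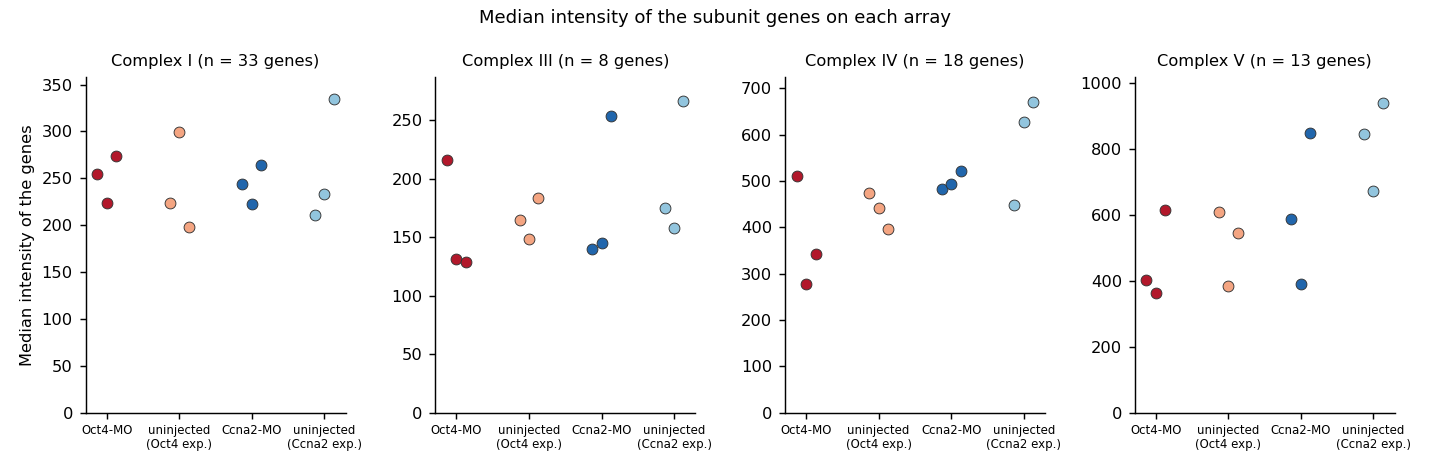
Median intensity (linear scale) of the subunit genes of complexes I, III, IV and V on each array, for Oct4-MO embryos, their uninjected embryos, Ccna2-MO embryos and their uninjected embryos. Each point is 1 array; in all 4 panels the points of a knockdown and of its uninjected embryos overlap, as in complex I with 224 to 274 in Oct4-MO embryos and 198 to 299 in their uninjected embryos.

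Complex I held the 1 called gene. Ndufc1, a subunit of the membrane arm, stood at 306, 283 and 392 in Ccna2-MO embryos, against 1048, 788 and 1349 in their uninjected embryos. The highest Ccna2-MO array was below the lowest of all 9 other arrays, since Oct4-MO embryos had 1641, 796 and 962 and their uninjected embryos 1442, 822 and 1026. The mean was 327 ± 57.3 in Ccna2-MO embryos and 1062 ± 280.4 in the uninjected embryos (SD, n = 3 each). This was a log2 fold change of -1.63 (SE 0.29, limma adjusted p = 0.033). In Oct4-MO embryos it was 0.02 (adjusted p = 0.996), and the difference between the knockdowns, 1.65, had an adjusted p of 0.54. A weaker probe set of Ndufc1 stood at 24.7, 5.37 and 45.6 in Ccna2-MO embryos, against 54.6, 88.7 and 186 in theirs. Its log2 fold change was -1.60 with an adjusted p of 0.18. The call was lost when array weights were used (adjusted p = 0.065), when the probe sets of a gene were averaged (0.058) and when only the 6 arrays of the experiment were fitted (0.15), and also in 5 of the 12 fits without 1 array. The log2 fold change stayed between -1.83 and -1.45 in those 12 fits.

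Other accessory subunits of complex I were lower in Ccna2-MO embryos at an unadjusted p only. Ndufa9, which sits near the site where coenzyme Q is reduced, stood at 269.5, 302 and 506 in Ccna2-MO embryos, against 727, 472 and 864 in their uninjected embryos (log2 fold change -0.92, SE 0.28, adjusted p = 0.16). Ndufb9, of the membrane arm, stood at 252, 338 and 159, against 669, 721 and 334 in the uninjected embryos (-1.14, SE 0.38, adjusted p = 0.19). In both genes the ranges overlapped, through a single array. Ndufb10, another membrane arm subunit, stood at 95.6, 50.4 and 264 in Ccna2-MO embryos, against 255, 233 and 323 (-1.15, SE 0.41, adjusted p = 0.23). Its Ccna2-MO replicate 3 was within the uninjected range, and without that array the fold change was -1.72 with an adjusted p of 0.027. Ndufb2 had no overlap, at 277, 245 and 485 against 552, 564 and 603 (-0.80, SE 0.28, adjusted p = 0.21). Ndufb2 and Ndufb9 each had another probe set with the opposite sign.

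Of the complex I genes with the largest positive log2 fold changes in Ccna2-MO embryos, Ndufa3 and Ndufa8 were dim, while Ndufa5 and Ndufa6 were brighter. Ndufa5, an accessory subunit of the peripheral arm, stood at 438, 243 and 185 in Ccna2-MO embryos, against 178, 125 and 96.8 in their uninjected embryos (log2 fold change 0.98, SE 0.39, limma adjusted p = 0.28), with no overlap. Its other probe set had 1.33 (limma adjusted p = 0.16), also with no overlap. Ndufa8, of the intermembrane space face, stood at 163, 129 and 77.0, against 44.0, 63.4 and 29.2 in the uninjected embryos (1.16, SE 0.46, adjusted p = 0.28), again with no overlap. Ndufa3 stood at 54.2, 114 and 62.3, against 7.92, 57.9 and 14.3 (1.25, SE 0.45, adjusted p = 0.23). Its groups overlapped, it was below 16 on 2 uninjected arrays, and another of its probe sets had the opposite sign. Ndufa6 stood at 348, 129 and 928, against 108, 126 and 359 (0.97, SE 0.57, limma adjusted p = 0.48), with overlap. The 6 complex I genes with the YY1 motif did not share a sign in Ccna2-MO embryos: Ndufc1 had -1.63, Ndufs7 -1.02, Ndufa9 -0.92, Ndufs4 -0.26, Ndufb8 0.48 and Ndufa3 1.25.

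In Oct4-MO embryos the most distinct complex I gene was Ndufb1, a small membrane arm subunit, at 24.7, 26.5 and 48.9, against 71.1, 55.4 and 116 in their uninjected embryos. Its log2 fold change was -0.96 (SE 0.30, adjusted p = 0.30) with no overlap, while in Ccna2-MO embryos it was -0.07. Ndufv1, the core subunit that binds NADH and flavin, stood at 98.0, 79.0 and 51.0 in Oct4-MO embryos, against 183, 90.3 and 198 (-0.88, SE 0.33, adjusted p = 0.41), with overlap, and its other probe sets gave 0.12 and 0.01. Ndufa10, an accessory subunit of the membrane arm, was higher on every Oct4-MO array, at 349, 386 and 665, against 223, 333 and 201 (0.82, SE 0.32, adjusted p = 0.45). Ndufv3 also lay wholly above in Oct4-MO embryos (0.88, adjusted p = 0.65), and Ndufa12 wholly below in Ccna2-MO embryos (-0.96, adjusted p = 0.44). None of these genes passed the test.

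In complex III the gene with the lowest adjusted p was Uqcrfs1, the Rieske iron-sulphur protein that takes electrons from coenzyme Q. It stood at 157, 139 and 319 in Ccna2-MO embryos, against 363, 380.03 and 414 in their uninjected embryos. In Oct4-MO embryos it stood at 256, 177 and 238, against 429, 323 and 295 in theirs. Neither pair of groups overlapped, and the log2 fold changes were -0.95 (SE 0.30, adjusted p = 0.17) and -0.61 (SE 0.30, adjusted p = 0.58). Without Ccna2-MO replicate 3, the highest of its group, Uqcrfs1 was called lower in Ccna2-MO embryos (-1.30, adjusted p = 0.039). Uqcrh, the hinge protein, whose promoter window holds the GABPA motif shown, had the opposite sign: its intensity was 402, 429.9 and 458 in Oct4-MO embryos, against 389.9, 283 and 369.5 in the uninjected embryos. Its log2 fold change was 0.31 (adjusted p = 0.86), and 0.50 (adjusted p = 0.52) in Ccna2-MO embryos, while its other probe set had -1.03 in Oct4-MO embryos. Uqcr11, a small subunit, stood at 31.1, 28.5 and 31.0 in Oct4-MO embryos, against 67.5, 45.4 and 36.9 in theirs (-0.49, adjusted p = 0.71). None of the 8 genes was called in a knockdown.

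**Figure D3:**
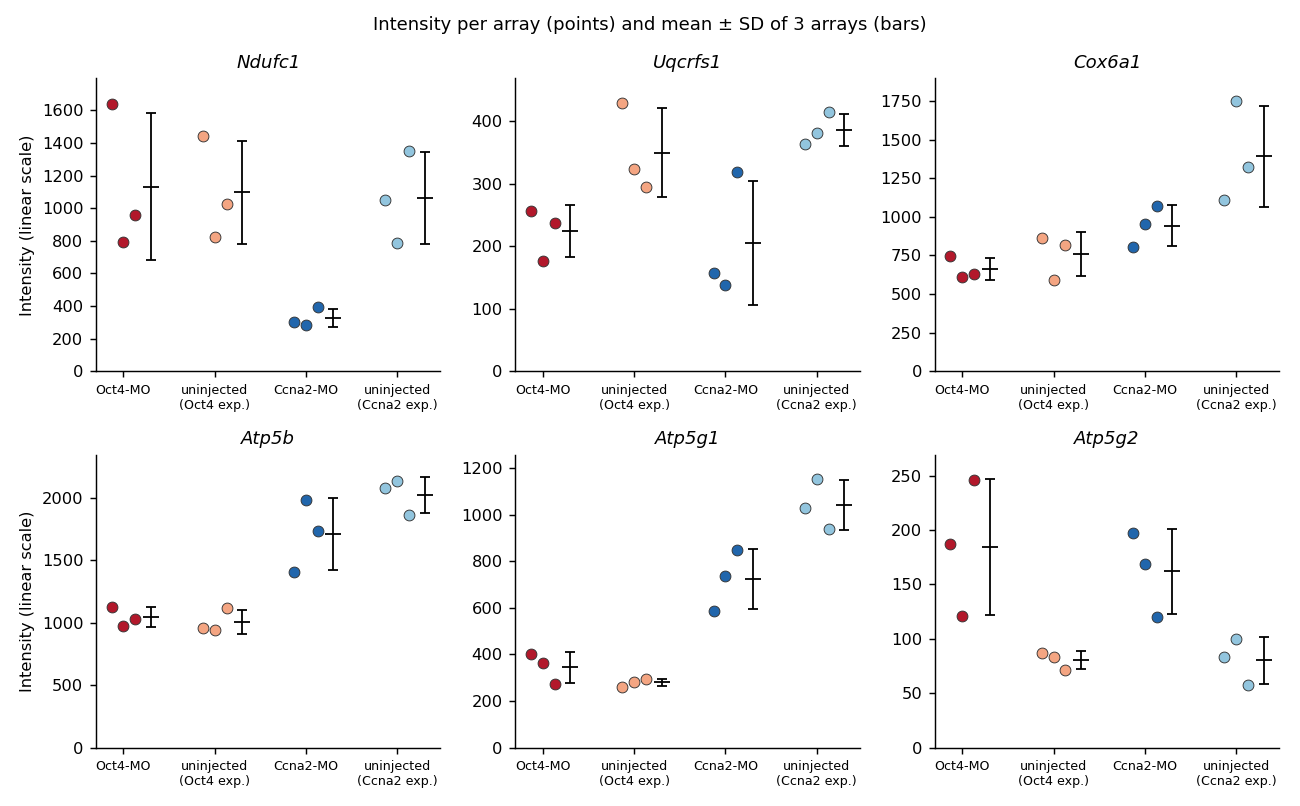
Intensity (linear scale) of Ndufc1, Uqcrfs1, Cox6a1, Atp5b, Atp5g1 and Atp5g2 on each array of the 4 groups. Points are arrays and the bar beside them is the mean with its SD over 3 arrays. Ndufc1 is low in Ccna2-MO embryos alone (306, 283 and 392), Atp5g2 is above its uninjected embryos in both knockdowns, and Atp5b and Atp5g1 are lower in both groups of the Oct4 experiment than in both groups of the Ccna2 experiment.

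Complex IV, cytochrome c oxidase, has subunits with paired isoforms, of which 1 is broadly expressed and the other is restricted to heart and muscle, lung, testis or other tissues. Over the 8 tissue-restricted genes the median log2 fold change was 0.11 in Oct4-MO embryos and 0.33 in Ccna2-MO embryos, with 2 of 8 below 0 each time. Over the 6 measured broadly expressed partners (Cox7b was not analysed here) it was -0.13, with 5 below 0, and -0.18, with 3 below 0. No gene of either list was called, and the medians of all genes were 0.01 and 0.03. Only 3 of the 8 tissue-restricted genes, but all 6 partners, were above 16 on all 12 arrays, so the lists differ in brightness as well.

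The Cox6a pair had opposite signs in both knockdowns, each set against its own uninjected embryos. Cox6a2, the heart and muscle isoform, stood at 117, 75.2 and 104 in Oct4-MO embryos, against 74.9, 51.7 and 67.6 in their uninjected embryos. In Ccna2-MO embryos it stood at 130.2, 92.1 and 53.8, against 31.2, 44.0 and 43.3 in theirs. Both knockdowns lay wholly above their uninjected embryos, with log2 fold changes of 0.50 (SE 0.31, adjusted p = 0.70) and 0.91 (SE 0.31, adjusted p = 0.20). Cox6a1, the broadly expressed isoform, stood at 804, 954 and 1072 in Ccna2-MO embryos, against 1106, 1748 and 1321 in the uninjected embryos, wholly below (-0.54, SE 0.21, adjusted p = 0.26). In Oct4-MO embryos Cox6a1 overlapped its uninjected embryos (-0.18, adjusted p = 0.89). Its promoter window held 2 matches to the NRF1 motif besides the GABPA match shown.

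Cox4 is the largest nuclear-encoded subunit, with Cox4i2 the form known from lung and low oxygen. Cox4i2 stood at 44.4, 30.4 and 29.97 in Oct4-MO embryos, against 16.1, 10.5 and 22.1 in their uninjected embryos, wholly above them (0.66, SE 0.25, adjusted p = 0.43). In Ccna2-MO embryos its log2 fold change was -0.29 (adjusted p = 0.67). Cox4i1 stood at 687, 379 and 562 in Ccna2-MO embryos, against 876, 716 and 1226 in theirs, wholly below them (-0.78, SE 0.31, adjusted p = 0.28), and at 528, 249 and 348 in Oct4-MO embryos, against 565, 414 and 374 (-0.30, adjusted p = 0.86). Cox6c, a subunit with no isoform in this list, was among the brighter genes, at 2087, 2219 and 1552 in Ccna2-MO embryos, against 1109.5, 1707 and 1474 in their uninjected embryos (0.45, SE 0.16, adjusted p = 0.23). In Oct4-MO embryos it stood at 2424, 2301 and 2680.3, against 2528, 2512 and 2487 (-0.03). Cox6b2, the testis isoform, stood at 943, 1221 and 1571 in Ccna2-MO embryos, against 691, 701 and 1199 in theirs (0.54, adjusted p = 0.39). Cox7c was wholly below in Oct4-MO embryos, but at intensities of 3.07 to 4.32, against 6.39 to 17.2, which lie mostly under the 16 added before the logarithm.

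**Figure D4:**
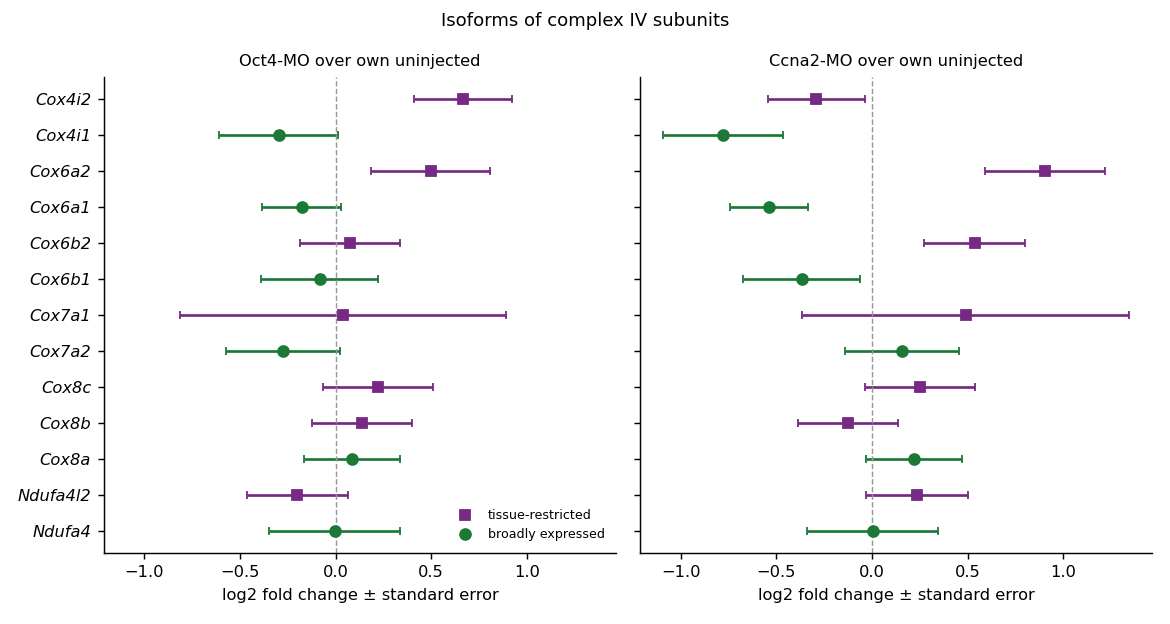
Log2 fold change with its standard error for tissue-restricted (squares) and broadly expressed (circles) isoforms of complex IV subunits in Oct4-MO and Ccna2-MO embryos over their own uninjected embryos; Cox7b2 is not drawn, since its partner was not analysed. The squares of Cox6a2 (0.50 and 0.91) lie to the right of the circles of Cox6a1 (-0.18 and -0.54) in both panels, and no gene shown passed the test.

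In complex V, 3 genes encode the same mature c subunit, which forms the rotor ring of the membrane part, and their log2 fold changes over their own uninjected embryos did not share a sign. Atp5g2 stood at 187, 121 and 246 in Oct4-MO embryos, against 87.4, 83.8 and 71.0 in their uninjected embryos. In Ccna2-MO embryos it stood at 197, 169 and 119.9, against 83.7, 100.3 and 57.4 in theirs. It lay wholly above in both experiments, with log2 fold changes of 1.01 (SE 0.31, adjusted p = 0.29) and 0.89 (SE 0.31, adjusted p = 0.21); its dimmer probe sets did not share a sign. Atp5g3 was wholly below in Oct4-MO embryos, at 1018, 793 and 1004, against 1149.7, 1074 and 1358 (-0.34, SE 0.17, adjusted p = 0.59), and had -0.21 in Ccna2-MO embryos. Atp5g1 was wholly below in Ccna2-MO embryos, at 588, 736 and 846, against 1030.2, 1152 and 939.5 (-0.53, SE 0.21, adjusted p = 0.27), but its log2 fold change was 0.39 with all 6 uninjected arrays as controls, and it had 0.28 in Oct4-MO embryos. The promoter windows of Atp5g2 and Atp5g3 hold the NRF1 motif shown.

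The other complex V genes gave smaller or more variable differences. Atp5d, the delta subunit of the central stalk, stood at 74.3, 56.3 and 80.5 in Oct4-MO embryos, against 159.9, 210.3 and 100.5 in their uninjected embryos, wholly below them (-0.96, SE 0.52, adjusted p = 0.63), and had 0.07 in Ccna2-MO embryos. Atp5j2, the f subunit of the membrane part, stood at 333, 386 and 1112 in Ccna2-MO embryos, against 908, 807 and 1116 (-0.81, SE 0.43, adjusted p = 0.43). Of the Ccna2-MO arrays, replicate 3 lay within the uninjected range. Atp5b, the beta subunit that carries the catalytic sites, had 0.05 after Oct4 knockdown (adjusted p = 0.96) and -0.25 after cyclin A2 knockdown (adjusted p = 0.47). Cox7a2l, which helps to join complexes III and IV, had -0.01 and 0.09.

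The uninjected embryos of the 2 experiments were also compared, and here 2 subunit genes passed the test, both higher in the Ccna2 experiment and both of complex V; 0.0716% of all genes were called higher and 0.044% lower. Atp5g1 stood at 1030.2, 1152 and 939.5 in uninjected embryos of the Ccna2 experiment, against 262, 281 and 296 in those of the Oct4 experiment (log2 fold change 1.83, SE 0.21, adjusted p = 0.0079). Atp5b stood at 2081, 2133 and 1862, against 959, 943 and 1116 in the Oct4 experiment (log2 fold change 0.9998, SE 0.14, adjusted p = 0.024). The ranges were far apart for both genes, but both calls were lost in some fits without 1 array: for Atp5g1 without uninjected replicate 1 (adjusted p = 0.072) or replicate 2 (0.058) of the Oct4 experiment, and for Atp5b without any 1 of the 6 uninjected arrays or Oct4-MO replicate 3 (0.051 to 0.17). A second, dim probe set of Atp5g1 brought the value to 0.93 (adjusted p = 0.084) when probe sets were averaged. Both genes have a matched promoter window, and neither window holds any of the 3 motifs.

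The groups were also apart for subunit genes that did not pass the test. With both called genes included, the ranges of the Ccna2 experiment lay wholly above those of the Oct4 experiment for 11 genes (15.1%; 10.4% of all genes) and wholly below for 5 (6.85%; 12.3% of all genes). Those above were Ndufa7, Ndufa13, Ndufb2, Ndufb11, Uqcrc1, Cox4i1, Cox6a1, Cox6b1, Atp5b, Atp5g1 and Atp5j2, and those below were Ndufb6, Cox6a2, Cox6c, Ndufa4l2 and Atp5a1. At an unadjusted p under 0.05, 7 were higher (5.67% of all genes) and 1 was lower (6.32% of all genes). The median over the 73 genes was 0.11, beside -0.02 for all genes. Cox6c was lower in the Ccna2 experiment, with -0.83 (SE 0.16, adjusted p = 0.099), and Cox4i1 and Cox6a1 were higher, with 1.02 (adjusted p = 0.24) and 0.86 (adjusted p = 0.15). Experiment, collection of embryos and hybridisation cannot be told apart in this comparison. It shares its arrays with both knockdown comparisons. Cox4i1, Cox6a1, Atp5g1 and Atp5j2, high in the uninjected embryos of the Ccna2 experiment, had negative log2 fold changes in Ccna2-MO embryos. Of the 5 genes low in those uninjected embryos, Cox6a2 (0.91), Cox6c (0.45) and Ndufa4l2 (0.23) had positive ones. Ndufb6 (-0.29) and Atp5a1 (-0.14) had negative ones.

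Related genes outside the name pattern were described from fixed lists. Of 33 listed symbols that the pattern leaves out, 7 were measured, and those of the 13 mitochondrially encoded subunits were not analysed here. Some of the other symbols are newer names of genes already described, such as Atp5mc1 for Atp5g1, so the list does not count subunits left out. No gene of the 7 was called, with medians of -0.16 after Oct4 knockdown and -0.26 after cyclin A2 knockdown. Among them Atp5o, of the stalk of ATP synthase, stood at 281, 214 and 107 in Oct4-MO embryos, against 344, 298 and 603 in their uninjected embryos (-1.02, adjusted p = 0.47). Atp5md, a small membrane subunit, stood at 909, 523 and 989.96 in Ccna2-MO embryos, against 1158, 1329 and 1744 (-0.82, adjusted p = 0.19). Both genes lay wholly below their uninjected embryos.

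Complex II, the succinate dehydrogenase that feeds electrons to coenzyme Q without pumping protons, had positive medians in both knockdowns. The summed intensity of its 4 subunits and 4 assembly factors was 2155, 2214 and 1986 in Oct4-MO embryos, against 1594, 1408 and 1635 in their uninjected embryos. It was 1840.5, 2330.2 and 2107 in Ccna2-MO embryos, against 1105, 1519 and 1240.4 in theirs. Neither pair of sums overlapped; the median log2 fold changes were 0.31 and 0.50, and no gene of the 8 was called. Sdhc, a membrane anchor, stood at 655, 629.8 and 569.6 in Oct4-MO embryos, against 133, 249 and 128 (1.83, SE 0.67, limma adjusted p = 0.41). By the group means, Sdhc held most of the difference between the Oct4-MO sums and those of their uninjected embryos. Sdhb, the iron-sulphur subunit, stood at 538, 230 and 832 in Ccna2-MO embryos, against 38.8, 317 and 160.0 (1.72, SE 0.58, adjusted p = 0.19). Sdha, the flavoprotein, had 0.54 and 0.78 (adjusted p = 0.64 and 0.24). In each knockdown 2 of the 8 genes were below 0. The gene with the lowest p in Oct4-MO embryos was the assembly factor Sdhaf4, at 160, 168 and 65.6, against 264, 200 and 343 in their uninjected embryos, wholly below them (-1.02, SE 0.35, adjusted p = 0.35). Sdhaf2, another assembly factor, had -0.89 in Ccna2-MO embryos (adjusted p = 0.30). Sdhc overlapped in Ccna2-MO embryos (0.24), and Sdhb did in Oct4-MO embryos (0.09).

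Of the assembly factors, Ecsit passed the test. Ecsit, needed for the assembly of complex I and also an adaptor of innate immune signalling, stood at 36.01, 35.1 and 41.8 in Oct4-MO embryos, against 287, 199.7 and 198 in their uninjected embryos (log2 fold change -2.17, SE 0.25, adjusted p = 0.021; adjusted p = 0.078 with the pairs of arrays as a block, 0.076 with only the 6 arrays of the comparison and 0.23 by the methods' t-test). It stood at 129.9, 93.4 and 91.3 in Ccna2-MO embryos, against 219, 209 and 242 (-0.997, SE 0.25, adjusted p = 0.092). Both knockdowns lay wholly below their uninjected embryos. The call in Oct4-MO embryos was lost without Oct4-MO replicate 2 (adjusted p = 0.072), without uninjected replicate 1 or 3 of the Oct4 experiment (0.14 and 0.13) and without uninjected replicate 1 of the Ccna2 experiment (0.059). Over the 17 complex I assembly genes the medians were 0.01 and -0.39, with 1 and 0 called. None of the 26 measured factors of complexes III and IV was called; Pet100, a complex IV factor, stood at 46.2, 35.3 and 27.8 in Oct4-MO embryos, against 125, 116 and 156 (-1.51, SE 0.35, adjusted p = 0.15). None of the 3 for ATP synthase was called either, with Tmem70 wholly below in both knockdowns (-1.03 and -0.85, adjusted p = 0.21 and 0.18).

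Among the partners of the chain no gene was called. The 7 carriers and porins that move ADP, ATP and phosphate had a median of 0.79 in Ccna2-MO embryos, where their summed intensity was 7242, 7136 and 8406, against 6191, 5834 and 6912 in the uninjected embryos, and of -0.17 in Oct4-MO embryos, where it was 5821, 5048 and 5302, against 5991, 5644 and 6086. Slc25a4, an ADP/ATP carrier, stood at 609, 302 and 741 in Ccna2-MO embryos, against 201, 189 and 100.2 (1.62, SE 0.36, adjusted p = 0.061). The 19 measured genes for coenzyme Q and cytochrome c had medians of 0.07 and 0.04. The 19 measured genes for the expression of mitochondrial DNA and its nuclear regulators had medians of -0.03 and -0.25, with summed intensities of 6059 to 9003 in Ccna2-MO embryos, against 10243 to 12167 in theirs, and of 6544 to 9969 in Oct4-MO embryos, against 9279 to 10307. Gabpa, which encodes the DNA-binding subunit of GABP, was wholly below in both experiments: it stood at 1226, 805 and 1070.2 in Ccna2-MO embryos, against 2043, 1735 and 2023 (-0.91, SE 0.20, adjusted p = 0.058). In Oct4-MO embryos it stood at 1521, 896 and 993, against 1693, 1671 and 1806 (-0.63, SE 0.20, adjusted p = 0.30). Yy1 was wholly below in Oct4-MO embryos (-0.58, adjusted p = 0.23), and Nrf1 had -0.03 and -0.27 (adjusted p = 0.99 and 0.76).

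**Figure D5:**
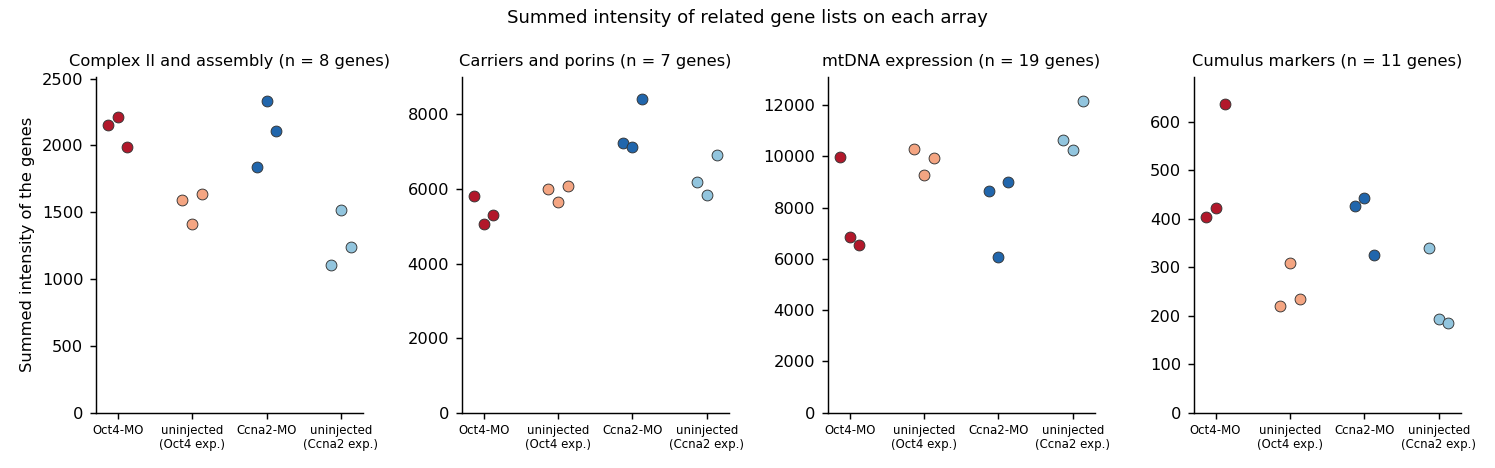
Summed intensity (linear scale) on each array of the genes for complex II and its assembly, for carriers and porins, for mitochondrial DNA expression and for cumulus cell markers, in the 4 groups; each point is 1 array. Complex II sums lie above those of the uninjected embryos in both knockdowns (1986 to 2214 against 1408 to 1635, and 1840.5 to 2330.2 against 1105 to 1519), and carriers and porins do so in Ccna2-MO embryos. Most of the complex II difference in Oct4-MO embryos lay in Sdhc.

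Some markers of other cells and of stage differed between groups. Of 12 cumulus cell markers 11 were measured, and none was called. Their summed intensity was 404, 423 and 636 in Oct4-MO embryos, against 220.1, 308 and 235 in their uninjected embryos, with no overlap, and 427, 443 and 324 in Ccna2-MO embryos, against 339, 193 and 184 in theirs, with overlap. Cyp11a1 made up most of the sum in Oct4-MO embryos, at 258, 292 and 442, against 108, 178 and 106 in their uninjected embryos. Star was above 16 on all 12 arrays, while Fshr, Ereg and Inhba were below 16 on all 12. Of the 2-cell markers, 5 of 10 were measured, and Trim43a was called lower in Oct4-MO embryos (-1.12, adjusted p = 0.022, and 0.0024 to 0.15 without 1 array). Only 1 of the 5, Trim43a itself, was below 0 there, and the median of the 5 was 0.07. Of the oocyte markers, Zar1 was called higher in Ccna2-MO embryos (2.19, adjusted p = 0.033, and 0.018 to 0.12 without 1 array). The 9 measured oocyte markers had a median of 0.0008 there, with 4 below 0. The part of cumulus RNA or of a shift in stage in the subunit values was not tested.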

How the data were processed

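Values of 12 Affymetrix whole-genome mouse arrays were used, 1 intensity per probe set on a linear scale, which the authors normalized and summarized with dChip before they deposited them; its version and options: not given in the sources used here. Of 45001 probe sets 64 controls were left out. Intensities were tested as log2(intensity + 16), so fold changes of dim genes are understated. All 4 groups were fitted together with limma 3.58.1 in R 4.3.3 (empirical Bayes with an intensity trend), and p-values were adjusted over 44937 probe sets by Benjamini-Hochberg, with a threshold of 0.05. Gene symbols came from the platform annotation: 34849 probe sets had 1 symbol, 928 several and 9160 none. Symbols of all 73 genes matched RefSeq.

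The members and gene lists were chosen with earlier results of these data known. Genes described in full were those called, those with the lowest p in a complex and those whose groups did not overlap, beside paired isoforms.

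The labels state that uninjected embryos came from the same pool as the injected ones, so equal numbers pair arrays; deviations from the group means correlated at 0.083, 0.031 and 0.0091 in the Oct4 pairs and at -0.013, 0.084 and 0.11 in the Ccna2 pairs. Data were also simulated for 44937 probe sets, with known changes only in some of the 22468 with the higher mean levels. Of changes of 2, 4 and 8 fold (69, 59 and 72 probe sets), 17.4, 57.6 and 84.7% were called for the Oct4 comparison. For the Ccna2 comparison (75, 59 and 66 probe sets) it was 9.33, 52.5 and 83.3%. Changes of dimmer probe sets were not simulated. The alternatives were the pairs as a block, other samples, offsets, filters, scalings, weights and probe set choices, an unpaired t-test per probe set, and each array left out. That t-test was adjusted by Benjamini-Hochberg and is not the study's method. The study ranked genes by fold change, its logarithm and an unpaired t-statistic, with a false discovery rate from permutations, and that ranking was not run. The number of arrays limits the precision.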

Additional observations from a re-analysis of the deposited data

How the results depend on the processing

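In Oct4-MO embryos no subunit gene was called under any setting that was run, including each fit without 1 array (0 to 0). Over all probe sets 33 were called, 4 with the pairs as a replicate block and 0 with only the 6 arrays of the comparison. With all 6 uninjected arrays as controls 452 were called, with no intensity trend 16 and with 64 added before log2 18. The 22468 brighter probe sets alone gave 92, and array weights gave 257. The unpaired t-test called 0 (4292 at an unadjusted p under 0.05), and fits without 1 array called 0 to 87. The median of the subunit genes, -0.12, lay between -0.26 (without Oct4-MO replicate 1) and -0.065 (without Oct4-MO replicate 2) when 1 array was left out.

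In Ccna2-MO embryos 336 probe sets were called, 124 with the replicate block and 3 with only 6 arrays. The brighter probe sets alone gave 711, and array weights gave 87. The unpaired t-test called 0 (4242 at an unadjusted p under 0.05), and fits without 1 array called 17 to 652. The 1 subunit gene called, Ndufc1, remained called with the block (adjusted p = 0.034), which changed no call of a subunit gene. The count was 0 with 6 arrays, with array weights, by the t-test and with probe sets averaged, and 0 to 3 without 1 array: 3 without Ccna2-MO replicate 3, where Ndufb10 and Uqcrfs1 joined, and 0 without uninjected replicate 3 of the Oct4 experiment, Ccna2-MO replicate 1 or 2, or uninjected replicate 1 or 3 of the Ccna2 experiment. The median lay between -0.15 and 0.00053 without 1 array. The difference between the knockdowns called 0 subunit genes, and 0 to 0 without 1 array. With all 6 uninjected arrays as shared controls these cancel out, and Oct4-MO arrays are set directly against Ccna2-MO arrays. That other comparison, in which knockdown and experiment cannot be told apart, called 1 subunit gene (Ndufc1, limma adjusted p = 0.043). Between the uninjected groups 2 subunit genes were called, and 0 by the t-test (5893 probe sets at an unadjusted p under 0.05), 1 with probe sets averaged and 0 to 2 without 1 array. With array weights Cox6c was called as well, lower in the Ccna2 experiment (-0.85, limma adjusted p = 0.031). Atp5g1 in Ccna2-MO embryos had 0.39 in place of -0.53 with all 6 uninjected arrays as controls. Single gene tests were repeated for the genes called and those with the lowest p in a complex. Of these 617 repeats, 594 kept direction and side of the threshold, 21 lost the call, 1 gained it and 1 turned. Calls gained in other tests, such as that of Ndufb10, are not in this count. The cause of these changes was not tested, beyond the fewer arrays or probe sets that some settings use. A t-test of the difference between the knockdowns was not run, and pairs do not exist between the uninjected groups. The simulation recovered few 2 fold changes among the brighter probe sets, so many changes of that size may be missed with 3 arrays a group. The shares recovered depend on how many probe sets change, which the simulation fixed, and may not carry over to these comparisons. Dimmer probe sets were not covered by the simulation.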
